A study of Mus musculus with 18 samples.

Results

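Livers of mice injected with carbon tetrachloride (CCl4) until week 22 were compared with livers of mice injected with oil over the same time, gene by gene, across all genes of a total RNA sequencing experiment. The comparison was chosen by the treatment given in the sample labels, and it takes 12 of the 18 libraries of the series, 6 on each side. All mice were male C57BL/6, 6 weeks old at the start, and 45 of them were divided into 3 groups of 15. Control mice received water by gavage every day and olive oil into the peritoneum 2 times a week. CCl4 mice received the same water gavage and CCl4 into the peritoneum 2 times a week, and the labels name them a liver cancer group. The third group, in which CCl4 was combined with a gavaged agent that the labels write as PTH and as PZH, gave the remaining 6 libraries and entered only the filter on low counts, the scaling and the estimate of the spread. From each group 6 mice were sequenced in week 22, and each library is treated as 1 mouse. The labels do not state if tumour tissue was sampled or the interval between the last injection and sampling.

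CCl4 is turned into a reactive radical by cytochrome P450 enzymes of the hepatocytes that surround the central veins, and these cells die. Repeated doses keep the liver in a cycle of death, inflammation, scarring and regrowth, and in mice such livers can go on to form tumours. Hepatocytes make up most of the mass and most of the RNA of a normal liver, so a change in a bulk library can come from the number of cells of a type or from the RNA of each cell, and these cannot be told apart here.

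The deposited gene counts summed to 77.2 to 86.6 M per control library and 67.2 to 83.8 M per CCl4 library, of which 32.6% to 55.8% and 37.3% to 49.4% lay in ribosomal RNA loci. All 10 hepatocyte defining markers had counts in all 12 libraries, and their summed level was 57985 to 75614 CPM (median 67159) in the controls and 28828 to 65352 CPM (median 49439) after CCl4, in CPM (counts scaled to the TMM-adjusted depth of the library). On that scale 5 of the 10 were lower after CCl4 and 0 higher (edgeR adjusted p below 0.05). With library sizes alone, without TMM, 1 was lower and 1 higher, so these calls depend on the scaling. In a principal component analysis of log2 CPM the first axis (48.8% of variance) set every control (-121 to -88.7) apart from every CCl4 library (76.2 to 157). The second axis (7.41%) set control 1 (99.1) and control 8 (66.8) apart from the other controls (-77.4 to -18.9). Control 1 was the library farthest from its group mean in 6727 genes (30.8%), and it alone held counts for 13 of 14 exocrine pancreas markers, 5553 counts in all, against 1 or 2 markers and 98 to 315 counts in each of the other 11 libraries. Their part in the results was not tested beyond leaving out each library in turn, or controls 1 and 8 together.

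Between CCl4 and control livers 10362 of 21840 tested genes differed, 47.4% of them, at an adjusted p below 0.05 (edgeR quasi-likelihood test, Benjamini-Hochberg adjustment over all genes tested). Higher after CCl4 were 5735 genes (26.3%) and lower were 4627 (21.2%). The higher genes had the larger changes: 3797 of them rose more than 2-fold and 692 at least 10-fold, whereas 1418 of the lower genes fell more than 2-fold and 129 at least 10-fold. In 5694 genes (26.1%) the 6 libraries of one group lay entirely above the 6 of the other, 3234 with CCl4 higher and 2460 with CCl4 lower. For 5050 genes (23.1%) the 95% interval of the fold change stayed within 1.5-fold either way.

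On the TMM scale the direction of change followed abundance. The abundance ranges below were not computed with library sizes alone, where 1061 genes in all were lower. Among genes with a mean below 1 CPM, 1924 rose and 546 fell, and among genes of 1 to 10 CPM 2503 rose and 1364 fell. The balance turned at 10 to 100 CPM, where 1254 rose and 2281 fell. Among the 632 genes of 100 to 1000 CPM 53 rose and 400 fell, with a median log2 fold change of -0.64, and above 1000 CPM 1 of 58 genes rose and 33 fell. Counted over the libraries, the genes called higher held 5.23% to 5.99% of the non-ribosomal counts in controls and 11.4% to 22.0% after CCl4, and the genes called lower held 55.4% to 62.9% and 36.9% to 47.6%, which describes the calls and is no further test of them. The 50 most abundant genes of each library held 39.3% ± 1.76 (SD, n = 6) of the non-ribosomal counts in controls and 34.8% ± 3.33 (SD, n = 6) after CCl4, a difference of -4.5 percentage points (exact permutation test, two-sided, p = 0.00866, and 0.026 after Benjamini-Hochberg adjustment over 3 shares tested). Leaving out any one of controls 2, 3, 4, 5 and 8 or CCl4 4, 7 and 8 brought the adjusted p to 0.0519, and with ribosomal loci in the denominator the difference was -0.857 points (adjusted p = 0.504). The shares of long noncoding RNA (3.55% and 3.92%) and of nuclear protein-coding RNA (89.1% and 89.5%) differed by less than the spread between libraries (exact permutation test, adjusted p = 0.716 for both). Much of the long noncoding share lay among a set of 4 loci like the ribosomal ones, which also includes a protein-coding gene. Removing the set thus changed both shares and the total they are taken from. With these 4 removed as well, a setting chosen after seeing the data, the long noncoding shares were 1.54% and 1.77%. The protein-coding shares were then 90.4% and 91.8% (exact permutation test, adjusted p = 0.106 for both).

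**Figure D1:**
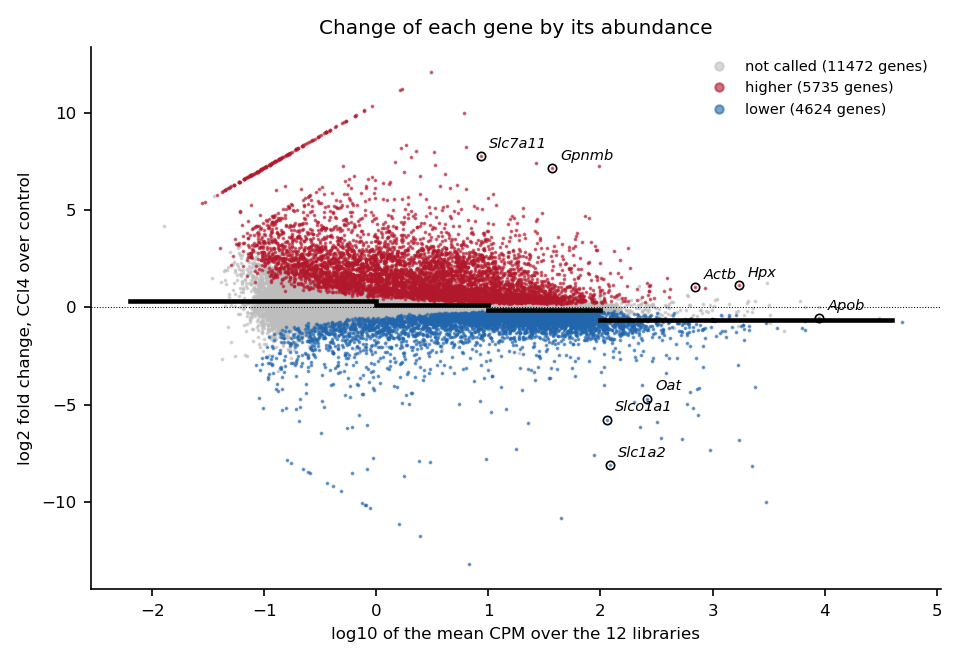
Each point is 1 of the tested genes outside ribosomal RNA loci, with its mean level over the 12 libraries in CPM on a log10 axis and its log2 fold change, CCl4 over control; colours mark genes called higher, called lower or not called, and black bars give the median of each abundance range. On the TMM scale the median lies above 0 below 10 CPM and at -0.64 for 100 to 1000 CPM. The straight streaks are genes with 0 counts in one of the groups.

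How many genes count as lower depends on how the libraries are scaled. TMM placed the median log2 fold change of all genes at 0.05. With library sizes alone that median was 0.63, with ribosomal loci removed and library sizes alone it was 0.51, and the split of calls moved from 55.35% higher to 91.40% and 87.38% higher. All 5735 genes called higher were also called higher with library sizes alone, while 1061 of the 4627 lower genes (22.9%) remained lower and 153 became higher. Gene groups that fell are therefore given below with their count under library sizes alone, and changes are relative to the TMM scale.

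The genes with the smallest p-values among protein-coding genes, taken at 5 CPM or more in the higher group, were led upward by Gpnmb, a transmembrane glycoprotein of lipid-laden macrophages, and Scube1, a secreted and membrane-bound protein with CUB and EGF-like domains. Downward they included Slco1a1, a bile acid and steroid uptake carrier of hepatocytes, and Oat, the mitochondrial aminotransferase that breaks down ornithine. Gpnmb (chromosome 6, 49036546 to 49070929, + strand, GRCm38) ranged over 0.382 to 0.888 CPM (median 0.470) in controls and 53.1 to 95.8 CPM (median 74.6) after CCl4. Scube1 (chromosome 15, 83604999 to 83725021, - strand) ranged over 0.248 to 0.593 CPM (median 0.453) and 7.68 to 22.3 CPM (median 15.2). Slco1a1 (chromosome 6, 141907282 to 141946962, - strand) ranged over 147 to 339.9 CPM (median 215) in controls and 2.89 to 6.06 CPM (median 3.57) after CCl4, and Oat (chromosome 7, 132557478 to 132576398, - strand) over 288 to 742 CPM (median 529) and 13.1 to 26.0 CPM (median 19.0). In none of the 4 genes did the groups overlap. The log2 fold changes were 7.14 ± 0.27 (SE), 5.09 ± 0.27, -5.78 ± 0.31 and -4.69 ± 0.29 (edgeR adjusted p = 3.86e-12, 4.67e-10, 7.55e-10 and 2.48e-09).

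Promoters of these 4 genes are shown because they are the ones with the smallest p in each direction that hold a searched motif. They come from RefSeq (GRCm38.p6) and run 5′ to 3′ from 250 bases before the annotated start site to 50 bases from it on the gene's strand. Capitals mark matches on either strand to the AP-1 (TGACTCA) and HNF4 (CAAAGTCCA) motifs in Gpnmb, the CCAAT box (CCAAT) and GC box (GGGCGG) in Scube1 and Oat, and the TATA box (TATAAA) in Slco1a1.
Gpnmb, chr6:49036268-49036567, + strand: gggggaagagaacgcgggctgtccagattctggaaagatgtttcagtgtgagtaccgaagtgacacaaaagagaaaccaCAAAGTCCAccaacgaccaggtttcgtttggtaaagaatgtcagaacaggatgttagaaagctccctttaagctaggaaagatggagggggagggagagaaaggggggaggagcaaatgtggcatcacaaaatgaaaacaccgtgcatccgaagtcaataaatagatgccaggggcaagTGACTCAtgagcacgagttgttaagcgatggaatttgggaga
Scube1, chr15:83724990-83725289, - strand: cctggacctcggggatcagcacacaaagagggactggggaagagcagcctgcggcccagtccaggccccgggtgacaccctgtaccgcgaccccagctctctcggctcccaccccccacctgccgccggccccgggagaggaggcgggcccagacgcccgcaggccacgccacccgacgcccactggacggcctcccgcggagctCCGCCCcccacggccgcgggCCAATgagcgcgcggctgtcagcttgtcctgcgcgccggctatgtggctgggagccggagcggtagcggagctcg
Slco1a1, chr6:141946913-141947212, - strand: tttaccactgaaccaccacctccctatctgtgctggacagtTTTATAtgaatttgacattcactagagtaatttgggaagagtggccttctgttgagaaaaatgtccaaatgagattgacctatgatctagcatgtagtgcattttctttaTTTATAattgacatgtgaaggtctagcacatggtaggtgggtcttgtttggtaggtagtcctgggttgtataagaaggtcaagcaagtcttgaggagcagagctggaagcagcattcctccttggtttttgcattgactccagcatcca
Oat, chr7:132576349-132576648, - strand: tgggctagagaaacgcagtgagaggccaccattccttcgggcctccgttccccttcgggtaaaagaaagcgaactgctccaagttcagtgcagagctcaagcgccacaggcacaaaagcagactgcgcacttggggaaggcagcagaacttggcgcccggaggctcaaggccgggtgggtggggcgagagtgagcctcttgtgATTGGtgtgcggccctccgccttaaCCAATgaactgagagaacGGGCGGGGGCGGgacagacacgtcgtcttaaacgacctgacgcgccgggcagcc

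The AP-1 match of Gpnmb begins 8 bases after the RefSeq start, which lies 28 bases upstream of the GENCODE start, and its HNF4 match begins 171 bases before it. In Scube1 the CCAAT box lies 25 and the GC box 45 bases before the start. The Slco1a1 matches to TATAAA lie 209 and 99 bases before the start and both read on the opposite strand. Oat holds CCAAT boxes at 47 and 22 bases before the start and a pair of GC boxes that lie end to end. Over the promoters of 11583 of the 14929 tested protein-coding genes, TGACTCA was found in 4.74% of genes called higher, 3.80% of genes called lower and 3.39% of genes not called, against 3.91% of all. The ETS motif CCGGAAG was found in 16.6% of all promoters but in 7.42% of genes that rose more than 2-fold and 7.25% of genes that fell more than 2-fold. GGGCGG was found in 60.5% of all, 52.7% of the former and 43.9% of the latter, TATAAA in 7.94%, 10.2% and 12.6%, and CCAAT in 38.8%, 36.3% and 44.4%. CAAAGTCCA was found in 0.492% of all promoters (57 of 11583) and in 1.48% of genes that fell more than 2-fold (10 of 676). The NF-kB site, searched in a single spelling, was found in few promoters. These were 13 of 3562 higher genes (0.365%), 2 of 2973 lower genes (0.0673%) and 7 of 5048 uncalled genes (0.139%). Median GC content was 60.0% over all promoters, 58.3% in genes that rose more than 2-fold and 55.7% in genes that fell more than 2-fold. These shares were not tested, and a match in such a window is not a binding site.

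The other genes of this selection were as sharply divided. Among those that rose were Ccdc80, a secreted matrix protein (3.60 ± 0.20), Ttc39a, a tetratricopeptide repeat protein (2.98 ± 0.18), Arhgef2, a microtubule-bound exchange factor for RhoA (2.63 ± 0.16), and Trem2, a lipid-sensing receptor of macrophages (4.57 ± 0.28); Mki67 and Lpl complete the 8. Ttc39a ranged over 0.475 to 0.901 CPM (median 0.561) in controls and 4.43 to 5.73 CPM (median 5.26) after CCl4. Among those that fell, Nxpe2, of the neurexophilin-like family, ranged over 12.6 to 19.3 CPM (median 16.6) and 0.436 to 0.817 CPM (median 0.509), a log2 fold change of -4.82 ± 0.24. Npr2, the receptor for C-type natriuretic peptide, ranged over 42.3 to 76.0 CPM (median 66.6) and 3.503 to 6.77 CPM (median 5.15) (-3.65 ± 0.24). Pla2g6, a calcium-independent phospholipase, fell less far, from 26.0 to 38.9 CPM (median 32.4) to 8.90 to 12.4 CPM (median 11.0) (-1.56 ± 0.11). Slc1a2, Susd4 and Glul complete the 8, and the groups of all 16 genes stayed apart. Arhgef2 and Npr2 overlap a gene on the other strand, and with strand handling not stated their reads and those of that gene cannot be told apart.

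**Figure D2:**
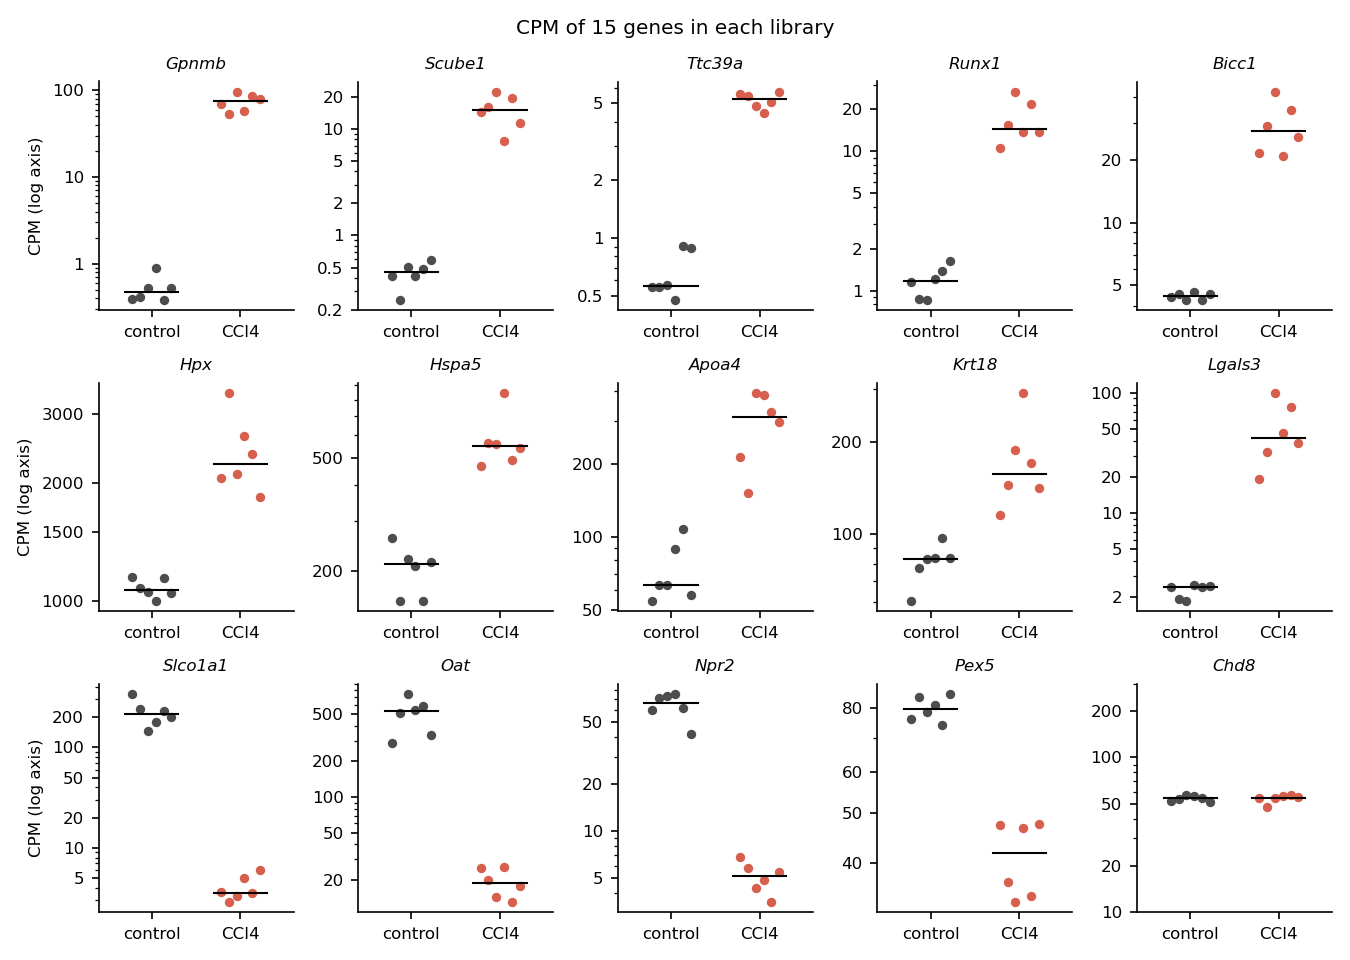
CPM of 15 named genes in the 6 control and 6 CCl4 libraries, 1 panel a gene; each point is 1 library and the bar is the group median. Gpnmb, Scube1 and Ttc39a rise and Slco1a1, Oat and Npr2 fall with no overlap of the groups, and the groups of Chd8 overlap.

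Ranked by the change in mean CPM, the 8 named nuclear genes called higher that gained most were Hpx, Cp, Actb, Hspa5, Cd74, Psap, Apoa4 and Myh9. Hpx, which encodes the haem scavenger hemopexin, ranged over 1000.03 to 1152 CPM (median 1068) in controls and 1839 to 3394 CPM (median 2233) after CCl4, a log2 fold change of 1.15 ± 0.36 (edgeR adjusted p = 0.0125). Cp, the copper-carrying ferroxidase ceruloplasmin, ranged over 512 to 629.8 CPM (median 596) and 874 to 1733 CPM (median 1044) (0.97 ± 0.35, adjusted p = 0.0286). The groups of both genes stayed apart, although their CCl4 libraries varied widely and CCl4 2 was the highest in each. Hspa5, the chaperone BiP of the endoplasmic reticulum, ranged over 156 to 261 CPM (median 212) and 466 to 846 CPM (median 552) (1.51 ± 0.25, adjusted p = 6.23e-05). Apoa4, an apolipoprotein of triglyceride-rich particles, ranged over 54.2 to 107 CPM (median 62.9) and 151 to 391 CPM (median 312) (2.02 ± 0.41, adjusted p = 5.25e-04). Actb rose by 1.04 on the log2 scale with groups that overlapped, and Myh9 (non-muscle myosin), Psap (the lysosomal saposin precursor) and Cd74 (the invariant chain of MHC class II) rose by 1.16, 0.92 and 3.05 with groups that did not. Cp was not called without CCl4 2 (0.78, adjusted p = 0.0781), without control 4 (0.90, adjusted p = 0.0572) or without controls 1 and 8 together (0.93, adjusted p = 0.0782).

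The largest losses in CPM were in the major urinary proteins Mup12 (-10.02), Mup17 (-8.19), Mup7 (-6.84) and Mup3 (-2.98), in Cyp2e1 (-4.12), in Apob (-0.58) and in Rn7s1 (-1.17) and Rn7s2 (-1.08), the RNA of the signal recognition particle. Mup genes and the Rn7s genes are near-identical copies whose reads the counting may have split, so the single values are uncertain. Apob, the structural protein of very low density lipoprotein, overlapped between groups at 8511 to 11648 CPM (median 11049) and 4907 to 9367 CPM (median 7368). Control 1 held 0.693% of its non-ribosomal counts in Rn7s1 and Rn7s2, below all CCl4 libraries (1.23% to 2.33%), while the control with the most held 3.67%. Apob was not called without CCl4 2 (-0.52, adjusted p = 0.0543) or without CCl4 4 (-0.48, adjusted p = 0.0633).

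Beyond single genes, 40 gene lists with 969 symbols were examined, of which 873 passed the low-count filter and 2 were not found in the annotation. Every list below is given with the number of its listed genes that were tested. All tested genes, 26.3% higher and 21.2% lower with a median log2 fold change of 0.05, are the background. It takes in all gene classes and abundances, whereas genes of 100 to 1000 CPM were mostly lower (400 of 632), and lists were not matched for abundance. With library sizes alone 11275 of the 21840 tested genes were higher and 1061 lower, with a median of 0.63. List counts and medians under that scaling are to be read against those values. Single values in parentheses after a gene are its log2 fold change, CCl4 over control, and each gene named as changed had an edgeR adjusted p below 0.05. Of the 71 genes named as lower, 14 were not called with library sizes alone: Apob, Rn7s1, Rn7s2, Krt23, Cdh2, Nrp1, Insr, Asgr1, Pygl, Tdo2, Aldh1a1, Hgfac, Srsf4 and Cyp4a14. Of all 197 genes named, 48 overlap an annotated gene on the other strand and 19 on the same strand, and since strand handling is not stated their reads cannot be told apart from those of that gene; among those described by range these are Cp, Apoa4, Npr2, Rgs16, Runx1, Gys1, Gabarapl1, Pvt1, Chd8 and Tgtp1.

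**Figure D3:**
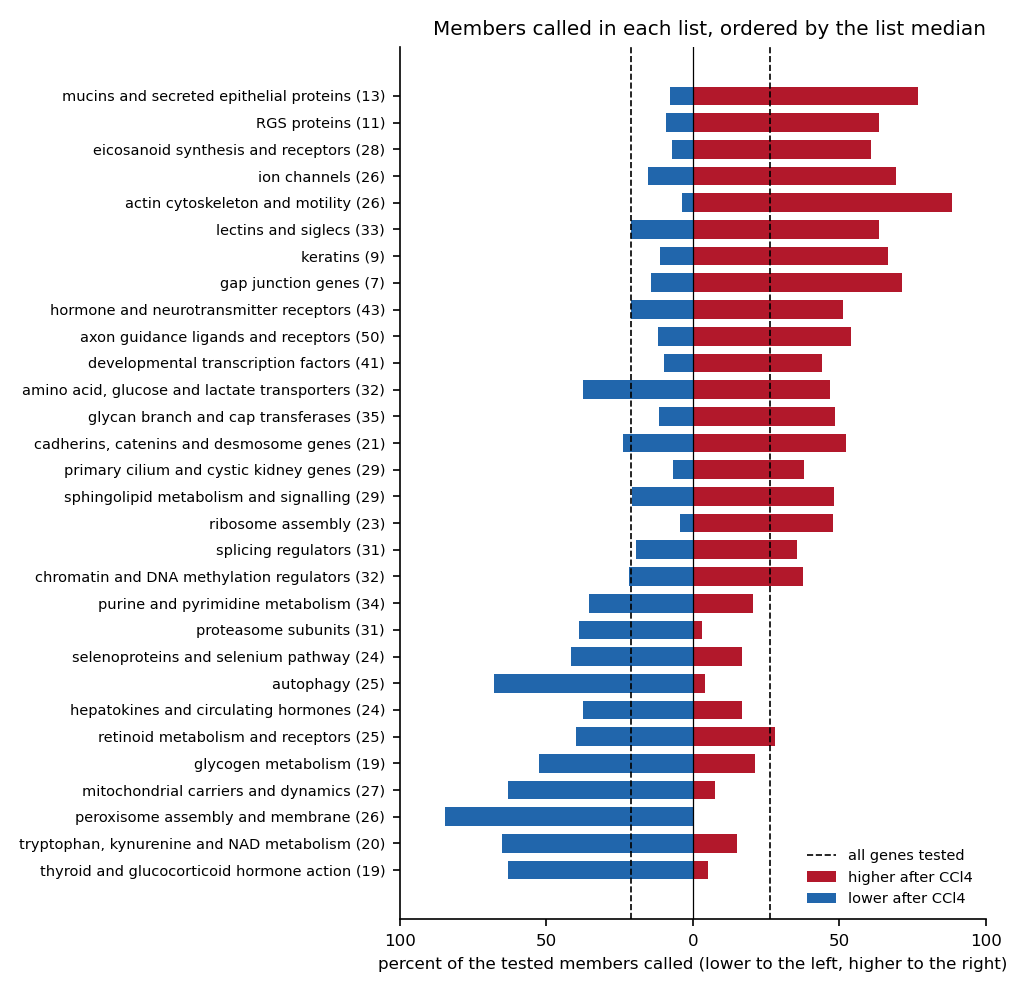
Percent of the tested members of 30 gene lists called higher or lower after CCl4, with dashed lines at the background of 26.3% higher and 21.2% lower over all tested genes. On the TMM scale actin, mucin and ion channel genes lie far above the higher background. Peroxisome, thyroid and glucocorticoid, autophagy and tryptophan genes lie far above the lower one. That background takes in all gene classes and abundances, and of the 632 genes of 100 to 1000 CPM 400 were lower. With library sizes alone autophagy genes had 8 higher and 3 lower.

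Most of the tested keratin and mucin genes rose. Of 18 keratin genes listed, 9 were tested, 6 rose and 1 fell, with a median of 1.19. A member near silent in controls could pass the low-count filter only through the groups given CCl4, so it could hardly be counted as lower. This holds in every list with such members, and their counts and medians lean upward for it. Krt18, which pairs with Krt8 in the filaments of hepatocytes, ranged over 60.3 to 97.0 CPM (median 83.0) in controls and 116 to 291 CPM (median 158) after CCl4 with no overlap (1.12 ± 0.17), and Krt8 changed alike (1.19). The ductal keratins rose further, Krt7 (2.45) and Krt19 (1.73), as did Krt80, of stratified and ductal epithelia (3.90). Krt20, an intestinal keratin, had no count in any control library and 0.212 to 0.778 CPM (median 0.270) after CCl4, at least 46.8-fold higher against a floor of 3 counts over the control group. Krt23 fell (-1.17). Of mucins and secreted epithelial proteins, 13 of 25 listed were tested, 10 rose and 1 fell (median 2.2): Ly6d (5.62), Slpi (3.85) and Muc1 (2.58) rose, while Pigr, which carries IgA across hepatocytes and duct cells, fell (-1.17).

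Junction genes moved in both directions. Of 21 cadherin, catenin and desmosome genes, 11 rose and 5 fell (median 0.37, and 15 rose and 0 fell with library sizes alone). Epithelial Cdh1 (1.48), mesenchymal Cdh11 (3.12) and Pcdh7 (2.58) rose, and Cdh2, the N-cadherin that hepatocytes also carry, fell (-0.84). Cdh17, the cadherin of intestinal epithelium, had no count in any control and 0.779 to 2.06 CPM (median 1.28) after CCl4, at least 175-fold higher against the same floor. Of gap junction genes, 7 of 10 were tested, 5 rose and 1 fell: Gja1 (connexin 43) rose by 1.35, whereas Gjb1 (connexin 32), the main connexin of hepatocytes, ranged over 302 to 341 CPM (median 313) and 111 to 197 CPM (median 179.6) (-0.92).

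Of 26 genes of the actin cytoskeleton and cell motility, 23 rose and 1 fell (median 1.45). The filament-capping protein Capg rose by 4.06 and the intermediate filament protein vimentin, Vim, by 2.68. The 3 proteins that tether actin to the membrane parted: Msn (2.04) and Ezr (1.90) rose, and Rdx, the radixin of the hepatocyte bile canaliculus, fell (-0.94). Rdx ranged over 126 to 145 CPM (median 138) in controls and 54.2 to 85.1 CPM (median 72.3) after CCl4. Capg, Vim and the lectin Lgals3 were highest in CCl4 4 and CCl4 7, the libraries that were also highest for Cd74.

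Axon guidance genes, which also steer vessels and migrating cells outside the nervous system, were tested in 50 of 51. Of these 27 rose and 6 fell (median 0.72, 39 and 0 with library sizes alone). Risen ligands were Sema4d (3.43) and Slit2 (4.59), and risen receptors were the netrin receptor Unc5b (1.93) and Ephb2 (3.74). Nrp1, an endothelial co-receptor for semaphorins and VEGF, fell (-0.69). Among 26 of 26 ion channel genes 18 rose and 4 fell (median 1.47). Kcnn4, the calcium-activated potassium channel of immune and activated cells, rose by 3.66, the scramblase Ano6 by 1.82 and the mechanosensor Piezo1 by 1.26. Among those that fell, Scnn1a (-1.73), Clcn2 (-1.47) and Kcnk5 (-1.62) are an epithelial sodium, a chloride and a potassium channel.

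Of 43 of 44 hormone and neurotransmitter receptors, 22 rose and 9 fell (median 0.84, 29 and 6 with library sizes alone). The receptors for glucagon (Gcgr, -1.10), insulin (Insr, -0.67) and adrenaline (Adra1b, -1.47), hormones that set glucose output in hepatocytes, fell, and Gpr35, a receptor of leukocytes and gut, rose (3.66). Gcgr ranged over 101.2 to 123 CPM (median 114) and 31.7 to 60.1 CPM (median 59.2). Of 11 RGS genes, which shorten G protein signals, 7 rose and 1 fell (median 1.82): Rgs2 (2.33) and Rgs10 (2.81) rose, and Rgs16, which follows fasting and the clock in liver, ranged over 13.9 to 147 CPM (median 30.2) and 1.95 to 8.27 CPM (median 3.03) (-3.72 ± 0.67).

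Of 41 of 43 developmental transcription factors, 18 rose and 4 fell (median 0.56). All 3 Runx factors rose, Runx1 (3.83), Runx2 (3.29) and Runx3 (3.36), as did Sox4 (2.59) and the epithelial ETS factors Elf3 (3.59) and Ehf (3.08). Runx1 ranged over 0.859 to 1.64 CPM (median 1.18) in controls and 10.5 to 26.7 CPM (median 14.6) after CCl4 with no overlap. Tbx3 fell (-2.0), and the hepatoblast factors Prox1 (-0.02), Gata4 (-0.0031) and Hhex (-0.05) were not called. Of 29 tested of 30 genes of the primary cilium and of cystic kidney disease, 11 rose and 2 fell (median 0.29), among them Bicc1 (2.71), an RNA-binding protein mutated in cystic kidneys, and the ciliary transport subunit Ift80 (1.01).

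Of 33 lectin and siglec genes 21 rose and 7 fell (median 1.44, 22 and 2 with library sizes alone). Lgals3, the galectin of macrophages and duct cells, ranged over 1.86 to 2.54 CPM (median 2.42) and 19.2 to 100.1 CPM (median 42.3) (4.51 ± 0.33), and Mrc2 (2.95) and the glucan receptor Clec7a (3.83) rose. Both subunits of the asialoglycoprotein receptor, with which hepatocytes clear glycoproteins, fell (Asgr1 (-0.84) and Asgr2 (-1.19)). Of 35 of 36 glycan branch and cap transferases 17 rose and 4 fell (median 0.48), among them Galnt3 (4.57), Gcnt1 (3.48) and B4galt6 (2.84).

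Several metabolic lists had more members lower than higher, and in glycogen metabolism isoforms of liver and of other tissues moved in opposite directions. In glycogen metabolism 4 of 19 genes rose and 10 fell (median -0.56, 6 and 2 with library sizes alone). Gys2, the glycogen synthase of liver, ranged over 129.6 to 205 CPM (median 159) in controls and 30.6 to 67.9 CPM (median 47.3) after CCl4, with no overlap (-1.76 ± 0.24). Gys1, the synthase of muscle and most other tissues, rose (0.62 ± 0.20) from 1.56 to 2.96 CPM (median 2.46) to 3.15 to 5.12 CPM (median 3.45). The phosphorylases moved in the same way: Pygl of liver fell (-0.98) with overlapping groups, and Pygb of brain ranged over 3.05 to 4.55 CPM (median 3.67) and 11.7 to 22.4 CPM (median 18.5) (2.27 ± 0.19). The primer glycogenin, Gyg, rose too (1.32). Without controls 1 and 8 together, Gys1 (0.46, adjusted p = 0.0778) and Pygl (-0.55, adjusted p = 0.131) were not called.

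Of 20 of 21 genes of tryptophan, kynurenine and NAD metabolism, 3 rose and 13 fell (median -0.73, 6 and 5 with library sizes alone). On the route from tryptophan towards NAD, the first enzyme, Tdo2 (-0.83), and Haao (-1.49), which makes the quinolinate precursor, fell. Aox3, an aldehyde oxidase that clears nicotinamide derivatives, ranged over 597 to 711 CPM (median 661) and 61.5 to 179.6 CPM (median 106) (-2.45 ± 0.34). The NAD-consuming ectoenzymes Cd38 (1.52) and Bst1 (4.18), both of leukocytes and stroma, rose. In thyroid and glucocorticoid hormone action 1 of 19 tested genes rose and 12 fell (median -0.82, 3 and 7 with library sizes alone). Dio1, the deiodinase that makes the active thyroid hormone T3 in liver, ranged over 33.5 to 65.2 CPM (median 47.9) and 4.24 to 11.99 CPM (median 8.42) (-2.49 ± 0.26), and the receptor Thrb fell as well (-1.11). Serpina6, the corticosteroid carrier of plasma, fell by 2.38 on the log2 scale and Hsd11b1, which regenerates corticosterone, by 1.26, while the kinase Sgk1 rose (1.25).

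Retinoid genes, 25 of 28 tested, had 7 higher and 10 lower (median -0.45, which turned to 0.11 with library sizes alone, with 9 and 5). The retinaldehyde and retinoic acid enzymes of hepatocytes, Rdh16 (-1.60) and Aldh1a1 (-0.78), and the carrier Rbp4 (-1.03) fell, whereas Dhrs9 (3.85) and Aldh1a2 (5.31), known from leukocytes and mesothelium, rose. Of 28 eicosanoid genes tested, 17 rose and 2 fell (median 1.48). Synthesis genes among them were Ptges (3.97, 0 to 0.318 CPM (median 0.0982) in controls and 0.915 to 3.14 CPM (median 1.91) after CCl4), Hpgds (2.27) and Ptgis (2.31) and the lipoprotein-bound phospholipase Pla2g7 (3.57). The lower pair, Hpgd (-1.28) and Ephx2 (-1.57), are enzymes that inactivate prostaglandins and epoxides. Ptgs2 had a fitted value of 5.81 with groups of 0 to 0.1013 CPM (median 0) and 0.0866 to 4.64 CPM (median 0.394). Of 29 sphingolipid genes 14 rose and 6 fell (median 0.27, 21 and 1 with library sizes alone): the kinases Sphk1 (3.56) and Cerk (2.09), the sphingomyelinase Smpd3 (3.33) and the receptor S1pr3 (1.67) rose, and the sphingomyelin synthase Sgms2 fell (-1.13).

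Of 26 genes of peroxisome assembly and membrane none rose and 22 fell (median -0.72). With library sizes alone 3 rose and 8 fell, and the median was -0.17. Pex5, the receptor that brings enzymes into the organelle, ranged over 74.1 to 85.2 CPM (median 79.7) and 33.6 to 47.7 CPM (median 41.8) with no overlap (-0.96 ± 0.10), and Pex11a (-1.72), the fatty acid importer Abcd3 (-1.53) and catalase, Cat (-1.23), fell further. Of 27 mitochondrial carrier and dynamics genes 2 rose and 17 fell (median -0.61, 5 and 7 and a median of -0.02 with library sizes alone). The coenzyme A carrier Slc25a42 (-1.27) and the fusion protein Mfn2 (-1.08) fell. The 2 that rose were Ucp2 (2.11) and Slc25a4 (1.66), the uncoupling protein of leukocytes and the adenine nucleotide carrier of muscle. Of the 13 messenger RNAs of the mitochondrial genome 12 fell and none rose, but with library sizes alone none was called either way (median -0.08), and their summed level was 9466 to 17408 CPM (median 14982) in controls and 6231 to 11757 CPM (median 8413) after CCl4, with overlap. As a share of the non-ribosomal counts they held 1.45% to 2.48% and 1.48% to 2.24%.

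Selenoprotein genes gave 4 higher and 10 lower of 24 (median -0.20, which turned to 0.36 with library sizes alone, with 10 and 3). Gpx3, the glutathione peroxidase of plasma, ranged over 1.35 to 3.48 CPM (median 2.41) and 16.2 to 32.8 CPM (median 23.3) (3.32 ± 0.37), and the reticulum protein Selenon rose (1.80), whereas Gpx1, the peroxidase of hepatocyte cytosol, fell (-1.25). Among 32 of 33 transporters of amino acids, glucose and lactate 15 rose and 12 fell (median 0.53, 19 and 2 with library sizes alone). Slc7a11, the cystine and glutamate exchanger that feeds glutathione synthesis, ranged over 0.0190 to 0.168 CPM (median 0.0620) in controls and 3.46 to 28.1 CPM (median 18.4) after CCl4, 218-fold higher by the fit (7.77 ± 1.01, edgeR adjusted p = 1.01e-05). The groups were far apart. The glutamine carriers Slc38a1 (2.30) and Slc1a5 (1.99) and the creatine carrier Slc6a8 (1.87) rose, and Slc38a3, the glutamine carrier of hepatocytes, fell (-1.30). Purine and pyrimidine genes had 7 higher and 12 lower of 34 (median 0.00, 18 and 5 with library sizes alone), with Impdh1 (1.83) and Entpd1 (2.22) higher. Of 24 of 26 hepatokines and circulating hormones 4 rose and 9 fell (median -0.45, 0.07 with library sizes alone, with 8 and 2): Sparcl1 (2.58), Manf (1.64) and Hgf (1.08) rose and Hgfac, the protease that activates Hgf, fell (-0.85).

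On the TMM scale ribosome assembly genes were more often higher than lower, and proteasome and autophagy genes more often lower. Splicing and chromatin genes had more members higher than lower, as had protein-coding genes as a whole (4648 higher and 3727 lower of 14929). The shares called either way were 52.17% for ribosome assembly, 54.84% for splicing and 59.38% for chromatin genes, near the 56.1% of protein-coding genes. For proteasome genes this share was 41.94%, and for autophagy genes 72%. Of 23 ribosome assembly genes 11 rose and 1 fell (median 0.23), led by Rrp12 (1.20) and Nop58 (1.04). Of 31 splicing regulators 11 rose and 6 fell (median 0.19, 24 and 1 with library sizes alone), with Mbnl3 higher (1.95) and Khdrbs3 (-1.43) and Srsf4 (-0.95) lower. Of 32 regulators of chromatin and DNA methylation 12 rose and 7 fell (median 0.11, 23 and 1 with library sizes alone): Uhrf1, which copies DNA methylation in dividing cells, rose by 2.68, Hdac7 (0.95) and Tet2 (0.68) rose less, and Hdac11 fell (-1.12). In 31 proteasome genes 1 rose, Psmd8 (0.53), and 12 fell (median -0.17), but with library sizes alone 24 rose and none fell (median 0.41). Autophagy genes gave 1 higher and 17 lower of 25 (median -0.41, which turned to 0.17 with library sizes alone, with 8 and 3). Gabarapl1, of the autophagosome membrane, ranged over 202 to 262 CPM (median 223) and 70.8 to 118 CPM (median 85.9) (-1.34 ± 0.16), and the only riser was the cargo receptor Sqstm1 (0.62). For the proteasome the direction depends on the scaling, and the medians of proteasome, autophagy and selenoprotein genes also turned with ribosomal loci removed and library sizes alone. Relative to the median of all genes these lists stayed in place. With TMM and with library sizes alone the list median minus that of all genes was -0.462 and -0.459 for autophagy. It was -0.224 and -0.221 for proteasome genes, and -0.255 and -0.268 for selenoprotein genes.

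Markers of other cell types were summed to see which tissues moved with the groups. Mesothelial markers, of the cell layer that covers the liver, had 9 of 10 genes higher and none lower, and their sum was 1.83 to 10.8 CPM (median 5.92) in controls and 10.1 to 30.8 CPM (median 23.8) after CCl4. The ranges overlapped slightly, with control 1 the highest control and CCl4 1 the lowest CCl4 library. Wt1 (2.97) and Lrrn4 (2.97) were among those that rose. Nerve and Schwann cell markers summed to 8.63 to 10.7 CPM (median 9.28) and 15.6 to 31.7 CPM (median 21.02) with no overlap. Only 10 of the 20 listed were tested, and 2 had no count in any of the 12 libraries. Of the 10 tested 5 rose and none fell, with Ncam1 (2.73) and Mbp (1.64). Of 13 platelet and megakaryocyte markers 10 were tested, 5 rose and none fell. Their sums were 9.31 to 12.1 CPM (median 10.5) and 11.1 to 21.1 CPM (median 18.8). Of 17 mast cell, basophil and eosinophil markers 7 were tested, 5 rose and 1 fell, while their sums overlapped (21.5 to 32.1 CPM (median 26.5) and 26.6 to 43.6 CPM (median 31.2)). The eosinophil genes Siglecf (4.57) and Ccr3 (4.32) were among those that rose. Both were near silent in controls, at most 0.153 and 0.190 CPM, and passed the low-count filter through the groups given CCl4.

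Adipocyte markers went the other way, 1 of 8 tested higher and 5 lower (1 and 4 with library sizes alone), and summed to 1194 to 1889 CPM (median 1546) in controls and 81.5 to 385 CPM (median 175) after CCl4. Car3 makes up most of the sum, with means of 1459.9 CPM and 172 CPM (-3.08), and is a carbonic anhydrase that male hepatocytes also make. Plin4, a lipid droplet protein, fell as well (-3.25), the defining adipocyte hormones Adipoq and Lep had no count in any of the 12 libraries, and Fabp4, shared with macrophages and endothelium, rose (2.06). Erythroid markers did not part (218 to 581 CPM (median 399) and 292 to 512 CPM (median 359.7)), with 2 higher and 3 lower of 13 (5 and 1 with library sizes alone). Lymphatic endothelial markers summed to 257 to 341 CPM (median 292) and 210.2 to 349 CPM (median 301), with 2 of 8 higher and none lower: Pdpn (4.08) and Lyve1 (2.27). Both were a small part of that sum. Lyve1 ranged over 1.35 to 3.53 CPM in controls and 7.12 to 16.8 CPM after CCl4, and Pdpn reached at most 0.324 and 2.995 CPM. The sum thus mostly follows the other members, among them Prox1, named above as a hepatoblast factor. Striated muscle markers stayed below 1.34 CPM in all 12 libraries, and 2 of 13 were tested with no call. The 2 pancreas markers tested of 14 were both called lower (median -3.01), also with library sizes alone, with overlapping groups, Cela1 (-1.54) and Cela2a (-4.48), and without control 1 the median was -0.92 and 1 was lower. What part these cell types had in the gene lists was not tested.

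**Figure D4:**
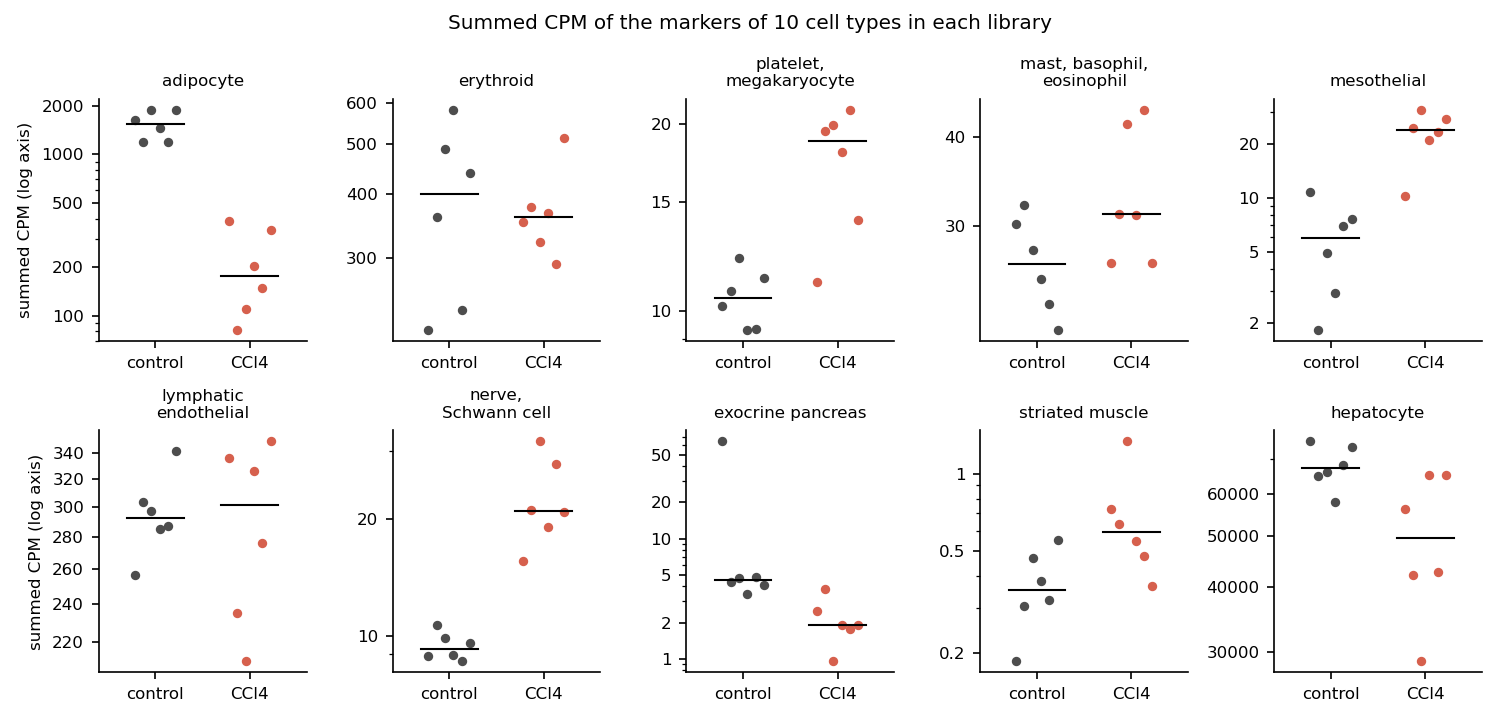
Summed CPM of 10 marker lists in each library, 1 panel a list, with control and CCl4 libraries as points and the group median as a bar. Mesothelial and nerve markers rise after CCl4, adipocyte markers fall, and control 1 stands alone at 64.3 CPM in exocrine pancreas markers.

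Gene classes differed in direction on the TMM scale. Of 14929 protein-coding genes 4648 rose and 3727 fell, of 2762 long noncoding RNAs 471 rose and 386 fell, and of 2152 pseudogenes 176 rose and 300 fell. Of 323 small RNA genes 11 rose and 76 fell, including 31 of 113 small nucleolar RNAs and 20 of 88 small nuclear RNAs lower against 2 higher in each. With library sizes alone 504 pseudogenes rose and 84 fell. For small RNA genes that scaling gave 36 higher and 22 lower, with 9 and 11 among small nucleolar RNAs and 10 and 3 among small nuclear RNAs. The balance of pseudogenes and of small RNA genes thus turned with the scaling. Of 91 immunoglobulin gene segments 64 rose and none fell (median 2.64), and their summed level was 13.4 to 49.7 CPM (median 25.1) in controls and 47.2 to 139 CPM (median 124) after CCl4. The groups met at their edges, with control 3 the highest control. Of 6 T cell receptor segments 5 rose, and the sum of 0.536 to 1.64 CPM (median 0.696) in controls stood against 2.02 to 15.3 CPM (median 4.92), with CCl4 4 the highest. Segments share sequence, so reads may be split among them.

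Among long noncoding RNAs with a name and at least 1 CPM in the higher group, the 4 that rose with the smallest p were AI506816 (3.92 ± 0.23), Pvt1 (1.64 ± 0.12), Dnm3os (2.87 ± 0.25) and Zfp469 (4.98 ± 0.60). Pvt1, the transcript next to Myc, ranged over 1.51 to 2.07 CPM (median 1.84) in controls and 4.86 to 6.35 CPM (median 5.44) after CCl4. Dnm3os is the host transcript of microRNAs on the opposite strand of Dnm3, and Zfp469 carries the name of a zinc finger gene but is classed as noncoding in the annotation used. The 4 that fell were Mir22hg (-0.96 ± 0.12), the host of a microRNA, Hnf4aos (-2.28 ± 0.32), antisense to the hepatocyte factor Hnf4a, AI463229 (-1.76 ± 0.28) and Notumos (-2.39 ± 0.39), antisense to Notum. Hnf4aos ranged over 2.79 to 6.43 CPM (median 5.57) and 0.416 to 2.22 CPM (median 0.887), and the groups of all 8 stayed apart. Pvt1 and Notumos overlap genes on the other strand, and Pvt1, Dnm3os and Mir22hg overlap another gene on their own strand.

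The steadiest protein-coding genes at 20 CPM or more were Chd8 (-0.0018 ± 0.06), Srrt (-0.0023 ± 0.07), Ssrp1 (0.01 ± 0.07), Xrn2 (-0.01 ± 0.06), Kctd20 (0.02 ± 0.06) and Usp8 (-0.02 ± 0.05), which include a chromatin remodeller, an RNA processing factor, a histone chaperone and a nuclear exonuclease. Chd8 ranged over 51.7 to 57.1 CPM (median 54.5) and 47.7 to 57.6 CPM (median 55.1). Under library sizes alone their values rose to the shift of all genes, for Chd8 to 0.59 and for Xrn2 to 0.58, so they are steady on the TMM scale only.

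Among control livers the most variable genes included Cyp4a14, a fatty acid hydroxylase driven by PPAR alpha, at 6.70 CPM in control 1, 139 CPM in control 8 and 1412 to 2133 CPM in the other 4 controls, and Cyp4a31, its neighbour and near copy, at 2.78, 13.4 and 84.9 to 125 CPM. Thrsp, a gene of fat synthesis after feeding, went the opposite way, 162 CPM in control 1, 236 CPM in control 8 and 6.41 to 17.1 CPM in the others. Moxd1 stood at 29.2 CPM in control 1 and at most at 4.89 CPM in the other controls. Controls 1 and 8 are the 2 that the second principal component sets apart. Without both of them the fall of Thrsp after CCl4 was -0.30 (adjusted p = 0.797), against -3.16 (adjusted p = 0.0212) with them, and the call was also lost without control 8 alone (-2.32, adjusted p = 0.0689) or CCl4 4 alone (-2.93, adjusted p = 0.0533). Cyp4a14 had -2.61 (adjusted p = 0.0405) and was not called after any of 9 single libraries was left out.

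Among CCl4 livers the variable genes included Mup17 and several immune genes. Nos2, the inducible nitric oxide synthase, was 56.5 CPM in CCl4 4 and 3.71 CPM in CCl4 7 against at most 0.907 CPM in the other 4, and the interferon-induced GTPase gene Tgtp1 was 167 and 109 CPM in the same pair against 4.72 to 12.6 CPM. Cxcl13, the chemokine that draws B cells, was 10.2, 25.4 and 27.0 CPM in CCl4 2, 4 and 7 and at most 0.803 CPM in the others; its call (3.29, adjusted p = 0.0310) was lost without CCl4 4 or 7 and without control 1, 3, 4 or 8. Ifit2, an antiviral gene, divided the libraries otherwise, with 0.680 CPM in CCl4 1 and 0.397 CPM in CCl4 8 below the controls (1.97 to 2.91 CPM) and 6.78 to 22.6 CPM in the other 4. CCl4 4 was also the lowest of its group in hepatocyte markers (28828 CPM) and the highest in nerve, mesothelial, immunoglobulin and T cell receptor sums, and the part of this in the other results was not tested. Zbed6, Sept2 and Raver1 also varied most by the rule, and each overlaps another gene. Over all genes the median SD of log2 CPM was 0.352 in controls and 0.395 after CCl4, and it was larger after CCl4 in 11232 genes (51.4%).

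**Figure D5:**
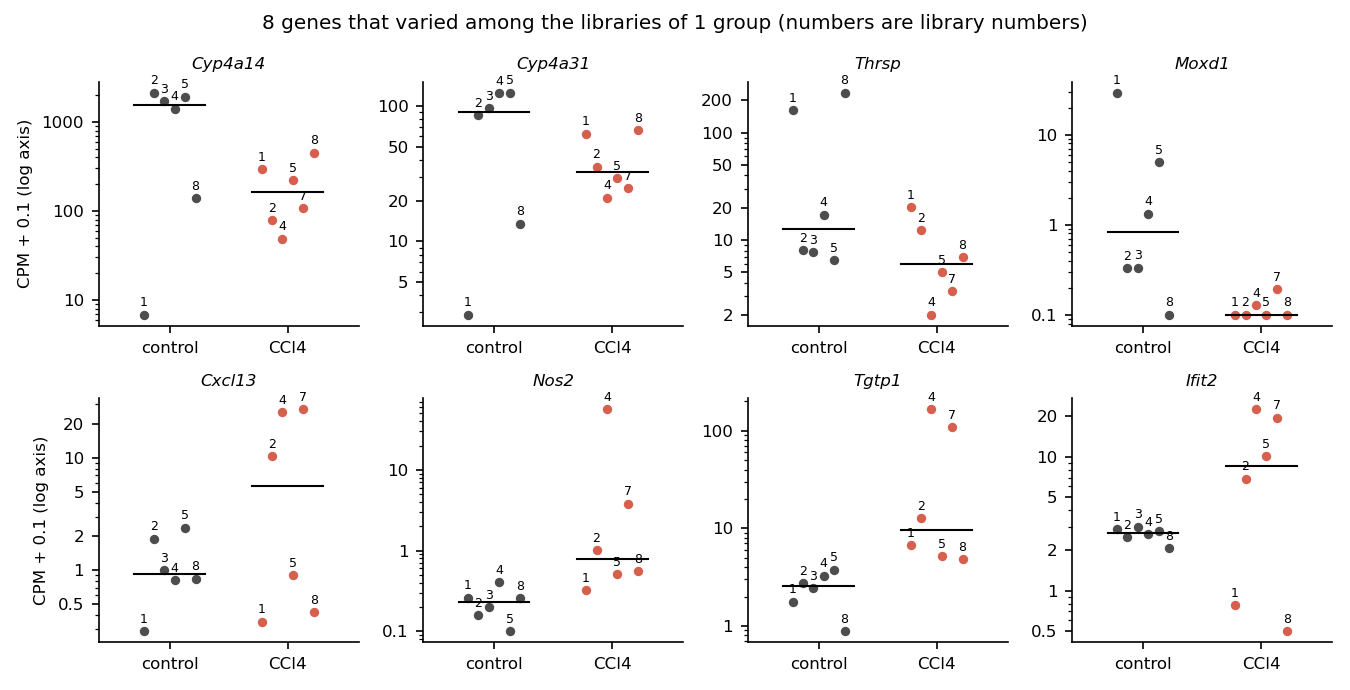
CPM plus 0.1, on a log10 axis, of 8 of the genes that varied most within a group, each point being 1 library marked with its number. Mup17, Zbed6, Sept2 and Raver1, also selected by the rule, are not shown. Controls 1 and 8 lie apart from the other controls in Cyp4a14, Cyp4a31 and Thrsp, and CCl4 4 and 7 lie highest in Nos2 and Tgtp1.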

How the data were processed

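Total RNA of mouse liver was sequenced after removal of ribosomal RNA, per the labels' protocols. Tools named in the submitters' processing notes, without their roles, were Bowtie2 2.5.1, StringTie 2.1.5, HISAT2 2.2.1, FastQC 0.11.9 and cutadapt 4.2, on GRCm38. Of the counting step, its strand setting and its treatment of multimapping reads, nothing is stated in the sources used here. The authors deposited 1 matrix of estimated counts per gene, whole numbers not scaled to depth and taken as estimates from the form of the gene names. It holds 54752 genes, of which 54723 matched GENCODE M21 and 18164 had no count in any library.

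Counts of all 18 libraries were filtered with filterByExpr (minimum count 10) and fitted with edgeR 4.0.16 (limma 3.58.1, R 4.3.3) by quasi-likelihood with TMM factors, 1 coefficient a group and Benjamini-Hochberg adjustment over 21840 genes. The fit was also run on simulated data in which few genes were changed. That setting lacks the wide shift of the real data, so it cannot decide which scaling is right. Genes are called at an adjusted p below 0.05. CPM are TMM-scaled, and principal components and spreads use log2 CPM with a prior count of 0.5. The p-values measure the spread between libraries, which hold 35.6 to 56.3 M non-ribosomal counts each. The labels give no sequencing batch. The floor of 3 counts used as a bound covers counting error only.

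The gene lists, the members and the naming rule were chosen with earlier results of these data known. The rule names the 8 called genes in each direction with the largest change in mean CPM, the 8 with the smallest p at 5 CPM or more, the 6 steadiest at 20 CPM or more, the 6 most variable in each group at 5 CPM or more, 4 long noncoding RNAs in each direction at 1 CPM or more and 2 members a list, and it allows other members of a list that is described; ribosomal RNA loci and mitochondrial genes are not named. The alternatives were DESeq2 1.42.0, voom with quality weights, other scalings, filters and samples, a replicate block and leaving out libraries.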

Additional observations from a re-analysis of the deposited data

Results flagged for a closer look

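In 400 groups of 6 values, 32 had one library whose gap to the nearest other took up more of the group's range than Dixon's 95% limit for 6 values; chance gives this in about 1 of 20 groups. The number given for each gene is that gap over the range, in log2 CPM.

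Control 1 was alone at the high end for the pancreatic elastase gene Cela1 (0.778) and Nop58 (0.664), and at the low end for Rn7s1 (0.653), Rn7s2 (0.817), the retinol enzyme Rdh16 (0.773) and S1pr3 (0.712). Control 8 was alone at the high end for Ptgs2 (1.0, the other controls being at 0 counts), and at the low end for Sept2 (0.865), Lrrn4 (0.720) and Selenon (0.726). Control 2 was alone at the low end for Krt19 (0.811), Runx2 (0.775), Slpi (0.905) and Smpd3 (0.676). Control 3 was low for Krt7 (0.788), Raver1 (0.943) and Uhrf1 (0.769) and high for Ephb2 (0.723). Control 4 was low for Slc1a5 (0.635), and control 5 was low for Cdh11 (0.778) and high for Arhgef2 (0.656).

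Among CCl4 libraries, CCl4 5 was alone at the high end for Hspa5 (0.685) and at the low end for Mki67 (0.810), Krt7 (0.694) and Susd4 (0.780). CCl4 2 was high for Sgk1 (0.632) and Srsf4 (0.648) and low for Mup12 (0.657) and Chd8 (0.702). CCl4 1 was low for Pdpn (0.825) and Cdh11 (0.690), and CCl4 4 was high for Gys1 (0.725). Without the library concerned, every one of these genes that was called higher or lower kept its call and direction.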

How the results depend on the processing

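Counts of called genes stayed within 1.5-fold under DESeq2 (6065 higher, 4904 lower), voom (5991, 4786), both filters, a fit of the 12 libraries, ribosomal loci removed before TMM, and without controls 1 and 8 (5355, 4616). Leaving out 1 library gave 5091 to 5558 higher and 4014 to 5047 lower genes. No pairing by number was seen over all genes together (deviations from the group means of same-numbered libraries correlated between -0.0739 and 0.0103). Such a correlation cannot exclude a factor shared by same-numbered libraries in some genes. The replicate block gave 4873 higher and 3809 lower genes, 3457 and 1283 beyond 2-fold. Library sizes alone gave 11275 higher and 1061 lower, 6509 and 498 beyond 2-fold; with ribosomal loci removed as well these were 10818, 1562, 5793 and 604. With 4 more loci like them removed, an alternative chosen after seeing the data, they were 10665, 1621, 5704 and 622. In these 3 scalings genes near 0 changed sign: Chd8 to 0.59, 0.47 and 0.45, Xrn2 to 0.58, 0.46 and 0.44, Usp8 to 0.57, 0.45 and 0.43, Srrt to 0.58, 0.47 and 0.45, Prox1 to 0.54, 0.42 and 0.39 and Gata4 to 0.60, 0.47 and 0.45. The share of the 50 most abundant genes differed by -0.857 points with ribosomal loci in the denominator, and by -5.19 to -3.28 without 1 library. Of the 197 named genes 14 lost their call with library sizes alone and 9 with the replicate block (Apob, Cela2a, Cp, Cxcl13, Cyp4a14, Krt23, Rn7s1, Rn7s2 and Thrsp); the cause was not tested.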
